A study of Mus musculus with 8 samples.

Results

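The sites described here are cytidines whose editing was low in the aged mouse cortex cells in which they were counted as methylated. They were chosen by the mean C-to-U fraction of aged cells divided by the share of aged cells with the site methylated. With that mean read as taken over all aged cells, the ratio is the mean C-to-U level within methylated aged cells. Sites with a level under 3% were taken, and the gene CT010467.1, annotated as ribosomal RNA, was left out. This gave 729 of the 2055 listed sites (35.5%), in 286 of 789 genes. CT010467.1 held a further 62 sites under 3%, and 19 listed sites had no methylated aged cell and so no level. The other 1240 sites with a methylated aged cell, again without CT010467.1, served for comparison. Proportions given for all listed sites count the 67 sites of CT010467.1 in their base. The 35.5% also counts the 19 sites without a level, and none of these sites could be chosen. Among the 1969 sites that could be chosen, the proportion was thus somewhat higher than 35.5%.

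The cells came from the cortex of mice with the genotype APOBEC1-YTH that had received tamoxifen. Treatment was 20 mg/kg every 24 h for 5 days, it began at an age of 12 to 14 months, and cortex was taken 7 days after the last dose. All 8 libraries were aged: 4 lanes of each of 2 sublibraries, which are not biological replicates. The sources used here give neither the number of mice nor the promoter that drives the transgene. Young cells were sampled in a companion series, and they enter only as 1 value per site in the authors' table. Age therefore cannot be told apart from any other difference between the series, such as library preparation or depth. That table rests on 846 aged and 2623 young cells, with no value per mouse or per library and no read count. No value below therefore has a replicate error, and no test was made. Shares of cells or sites are given with exact 95% intervals by the Clopper-Pearson method, and these describe counting error alone. Cell types were not analysed here, so the tissue label was not checked against marker genes.

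N6-methyladenosine (m6A) is a modification that a methyltransferase complex places on adenosine in messenger and long noncoding RNA, mostly where a C follows the A, and often in 3' UTRs and long exons. YTH proteins bind it. In the assay used here the cytidine deaminase APOBEC1 is fused to a YTH domain and deaminates a C beside m6A, and the resulting C-to-U changes in reads mark methylated RNA in single cells. In such data the number of cells that carry an edit and the fraction of edited reads within those cells are different quantities, and the sites described here are those where the second was small.

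The bases around the sites show what was edited. The first set holds the low-level site with the most methylated aged cells in each of Malat1, Meg3, Gm37376, Snhg11, Nrd1 and Lars2. They are shown because their low-level sites were among those found in the most aged cells. Each is given 5′ to 3′ on the gene's strand in mm10 coordinates, read from GENCODE M21 transcripts, with the edited C in capitals.
Malat1 (chr19:5802036-5802056, minus strand): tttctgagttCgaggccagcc
Meg3 (chr12:109561693-109561713, plus strand): aaaaaaaagaCgcaaaaaaag
Gm37376 (chr19:5801975-5801995, plus strand): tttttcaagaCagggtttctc
Snhg11 (chr2:158381585-158381605, plus strand): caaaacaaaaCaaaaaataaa
Nrd1 (chr4:109013647-109013667, plus strand): acgacgacgaCgatgatgatg
Lars2 (chr9:123461986-123462006, plus strand): gcgttcatagCgacgtcgctt
In Malat1 and Lars2 the base before the edited C was not an A, and in the other 4 it was. The second set holds 5 of the 8 sites with the largest drop from the young to the aged level, shown because their young level was high.
Cacna1a (chr8:84559081-84559101, plus strand): gcaagcagaaCctgctggcca
Aak1 (chr6:87002066-87002086, plus strand): ctcgaaaaaaCgaaaaaaaaa
Grin2b (chr6:135730297-135730317, minus strand): agcttgactgCaggatcgccg
Erc2 (chr14:28271604-28271624, plus strand): gtgaaaaagaCgcaaacattg
Luc7l2 (chr6:38603355-38603375, plus strand): tcgtgagaaaCgccatcgcca
In this set the C followed an A in every sequence but that of Grin2b.

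Within methylated aged cells the low-level sites had a median C-to-U level of 0.859%, with an interquartile range of 0.523 to 1.39% and a lowest value of 0.0347%. At the same sites the level within methylated young cells was 8.78% (interquartile range 4.21 to 15.6%). The young level was 10% or more at 317 sites and 30% or more at 60. The median ratio of the young to the aged level was 9.87. At 723 of the 729 sites the level was lower in aged cells, against 68.1% of all 2036 listed sites with a methylated aged cell. The sites were chosen for a low aged level, which favours this direction, so the count is a description and supports nothing. At the other 1240 sites the median level was 24.3% in aged and 27.3% in young cells.

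**Figure D1:**
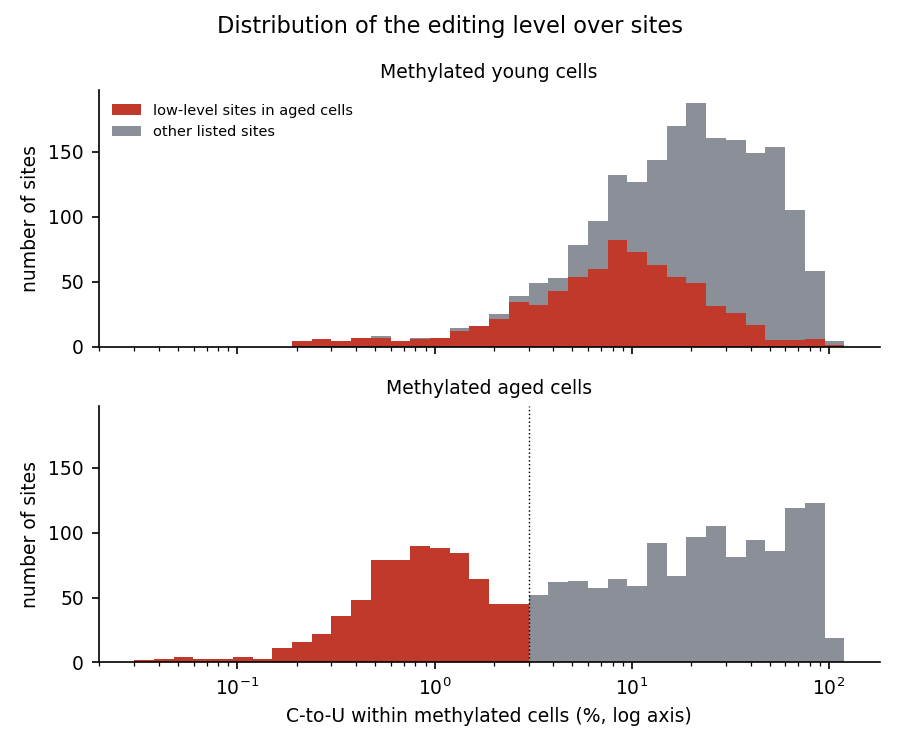
Number of sites (y axis) by C-to-U level within methylated cells (x axis, percent, log scale), young cells above and aged cells below, with the 729 low-level sites in red and the 1240 others in grey, stacked; the dotted line is the 3% threshold. The aged histogram has a hump of red sites around 1% that the young histogram lacks, where the same sites spread around 10%.

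Counted in intervals of equal width on a log scale, the aged levels formed a hump around 1%. The interval from 0.754 to 0.949% held 90 aged sites and the interval from 2.38 to 3.00% held 45. Counts were higher again at high levels, with 123 sites from 75.4 to 94.9%. The young levels had 1 broad maximum, with 188 sites from 18.9 to 23.8% and 7 sites from 0.754 to 0.949%. Values just inside the threshold were 2.974% at Calm3, 2.986% at Slc1a2 and 2.998% at Gnao1, and values just outside included 3.004% at Xist and 3.015% at a site of Ddx5. The neighbouring C of that Ddx5 site, at 1.57%, counted as a low-level site. The threshold thus separates values that hardly differ, although it lies near the lowest counts between the hump and the higher levels.

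Few sites were low at both ages. Of the 141 sites with a young level under 3%, 128 (90.8%) were also under 3% in aged cells. Of the 729 low-level sites in aged cells, those 128 made up 17.6%. Of the 128, 105 lay in Meg3, Malat1, Gm37376, Snhg11 and Lars2. At 6 low-level sites the aged level exceeded the young one, among them 1 site each of Meg3, Malat1 and Snhg11 and 2 of Lars2. The largest such difference was at the Meg3 site printed above, at position 109561703 of chromosome 12, with 1.42% in young and 2.63% in aged cells.

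**Figure D2:**
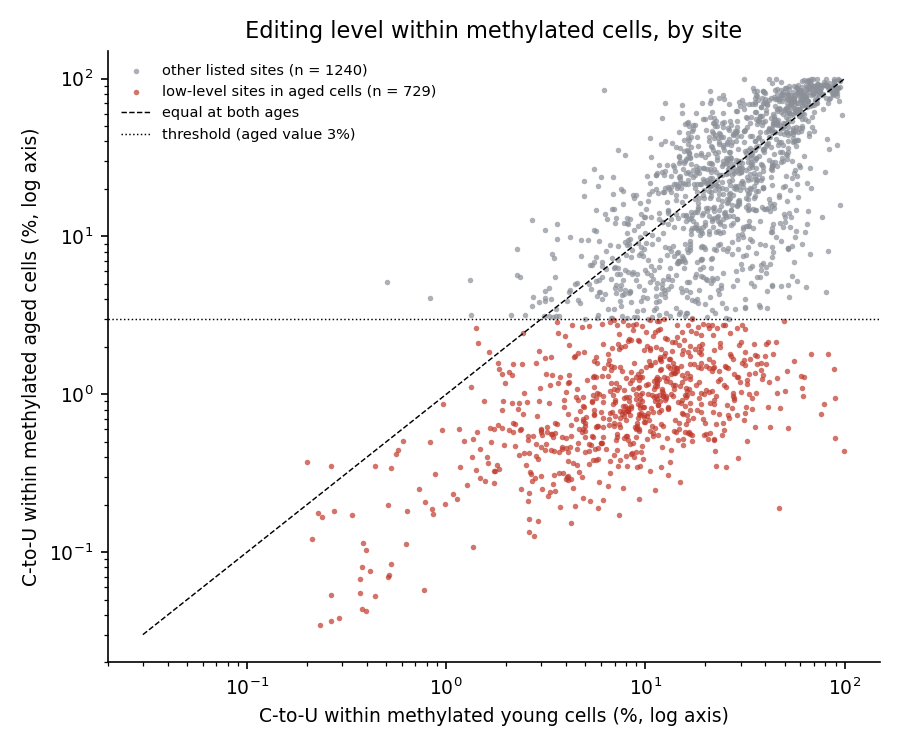
C-to-U level within methylated aged cells (y axis) against that within methylated young cells (x axis), both in percent on log scales, 1 point per site. The low-level sites (red) lie under the dotted 3% line and, but for 6, under the dashed line of equality; other sites (grey) lie on both sides of it.

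The share of cells in which a site was methylated moved the other way. At low-level sites the median share was 0.953% of young and 2.48% of aged cells. The share was higher in aged cells at 648 of 729 sites (88.9%, 86.4 to 91.1), against 76.1% of all listed sites with a methylated aged cell and 900 of the 1240 others (72.6%). With the 95% intervals of both shares apart, it was higher at 413 low-level sites (56.7%, against 47.9% of all and 45.3% of the others). It was lower at 33 low-level sites (4.53%, against 14.3% of all and 15.8% of the others). At the remaining 283 the intervals overlapped. Without the 5 genes with most low-level sites, the share was higher with intervals apart at 44.9% of low-level and 43.4% of other sites. Whether or not intervals were apart, it was then higher at 85.7% and 71.7%. In coding sequence it was higher with intervals apart at 59.9% of low-level and 66.5% of other sites. The order was the reverse in 3' UTRs (21.9% and 13.2%), noncoding exons (78.8% and 69.0%) and 5' UTRs (73.2% and 64.1%). The table lists only sites the authors called different, with no site under 25 methylated cells over both ages or under 0.58 in absolute log2 ratio of the means. The aged share is also the divisor in the level used for the choice, so a high aged share favours a low level. The counts of higher shares are thus a description.

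**Figure D3:**
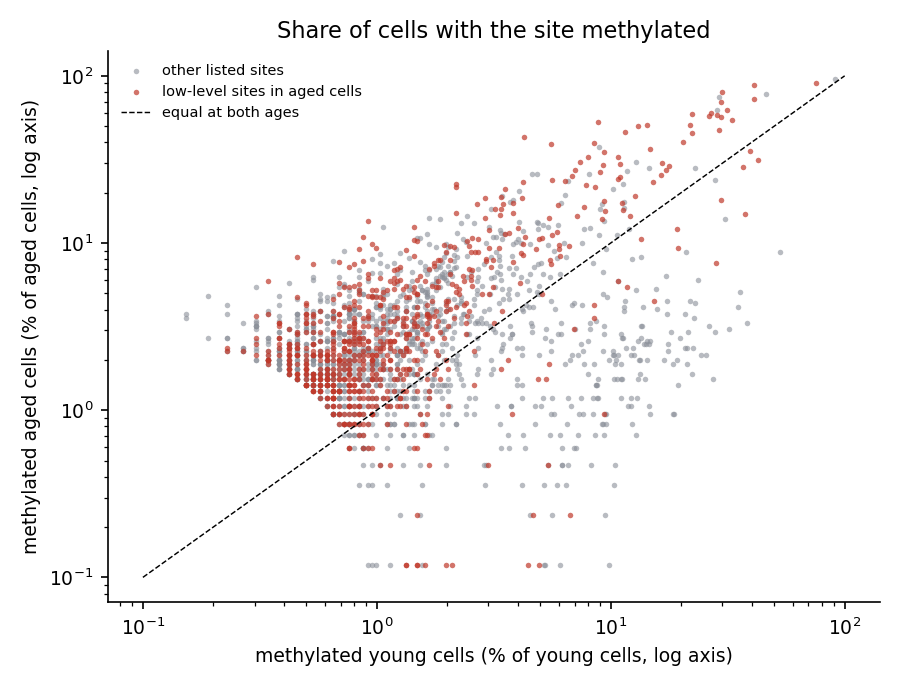
Share of aged cells (y axis) against share of young cells (x axis) with a site methylated, in percent on log scales, 1 point per site. Most low-level sites (red) lie above the dashed line of equality (648 of 729); the empty lower left corner reflects the table's lower limit on methylated cells.

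The mean C-to-U over all cells, which the authors compared, is the product of share and level. At low-level sites the median mean was 0.0943% in young and 0.0221% in aged cells, and the mean was lower in aged cells at 664 sites (91.1%, against 58.2% of all). At 583 sites (80.0%, against 35.6% of all) a lower mean stood beside a higher share of methylated cells. At 81 sites both were lower. At the 65 sites with a higher mean, the share was higher and the level lower at 61. Low-level sites made up 10.9% of the summed young mean C-to-U of these 1969 sites and 2.33% of the aged sum. The choice on the aged level and the table's lower limit on the ratio of the means both shape these counts.

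The lowest levels imply a number of reads. If the level of a cell is its edited reads divided by its reads at the site, which is not stated in the sources used here, a cell needs at least 34 reads to show an edit under 3%. At the median low-level site at least 1 methylated aged cell would need 117 reads, at the lowest site 2883, and at the median of the other sites 5. For the young levels of the low-level sites the median is 12. Whether reads or unique molecules were counted was not given, and a difference in depth between the ages was not tested.

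Long noncoding RNAs held the largest numbers of low-level sites. Meg3, an imprinted long noncoding RNA of neurons, had 103 of its 144 sites under 3%, Malat1, an abundant nuclear RNA, 65 of 87, the small nucleolar RNA host transcript Snhg11 31 of 51 and Gm37376 18 of 21. Snhg11 is annotated as coding, so that 28 of its 31 low-level sites counted as 3' UTR. With Srrm2 these genes held 232 of the 729 sites (31.8%). Across the fixed list of nuclear and imprinted long noncoding RNAs, 203 of 316 sites (64.2%) in 5 of 8 listed genes were low-level, against 35.5% of all sites. The choice of these sites used the same values, so the list's share is a description.

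The Meg3 site printed above had the most methylated aged cells among the low-level sites of its gene. It was methylated in 782 young cells (29.8%, 28.1 to 31.6) and 674 aged cells (79.7%, 76.8 to 82.3), and the intervals were far apart. Its mean over all cells went from 0.423 to 2.09%, higher in aged cells, in contrast to 82 of the 103 Meg3 sites, where the mean was lower. Over the 103 sites the median level was 4.21% in young and 0.578% in aged cells, and the share was higher in aged cells at 102, with intervals apart at 85. The lowest Meg3 level with at least 20 methylated aged cells was 0.126% at position 109561923, against 2.76% in young cells. Of the 92 Meg3 sites between 18000 and 22000 bases from the annotated gene start, 66 were low-level. The 41 Meg3 sites outside the group had a median young level of 7.88%, above that of the low-level ones.

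Snhg11 at position 158381595 of chromosome 2, in an A-rich stretch, was methylated in 112 young cells (4.27%, 3.53 to 5.12) and 362 aged cells (42.8%, 39.4 to 46.2). Its level within methylated aged cells was 0.294%, against 1.47% in young cells, and its mean over all aged cells 0.126%, against 0.0628% in young cells. The authors' deposited table gives this site an adjusted p of 1.00e-172, the smallest among the low-level sites named here. At the other Snhg11 sites of the group the aged level ranged up to 2.87%.

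**Figure D4:**
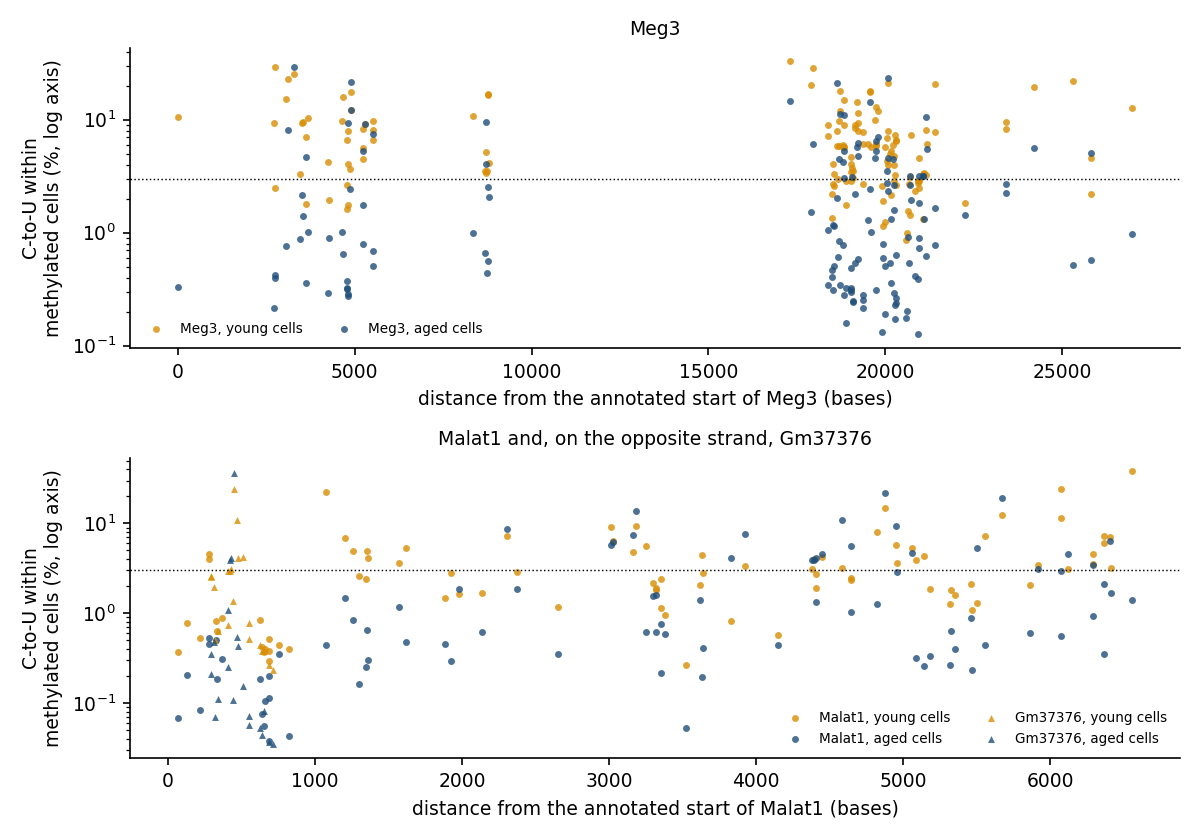
C-to-U level within methylated cells (y axis, percent, log scale) against distance in bases from the annotated start of Meg3 (above) and Malat1 (below), young cells in orange and aged cells in blue, triangles for Gm37376 on the strand opposite to Malat1; the dotted line is 3%. Most of the lowest aged values lie near the 5′ end of Malat1.

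Malat1 and Gm37376 shared the lowest levels of all. Gm37376, an unclassified transcript, lies on the strand opposite to the 5′ part of Malat1, and a Malat1 exon covered all 18 of its low-level sites. From position 5801962 to 5802384 of chromosome 19, a stretch of 423 bases, 28 of the 31 listed sites were low-level, 18 assigned to Gm37376 and 10 to Malat1. Their median level was 0.633% in young and 0.113% in aged cells, and their median share 16.9% of young and 28.7% of aged cells. Of the 15 sites with an aged level under 0.1%, 11 lay there. The surrounding 41 bases of 26 of the 28 recur in another annotated gene, in most cases the overlapping partner. For 9 of them they recur in at least 5 other genes, and in up to 414. Outside this stretch 1 low-level site had its bases in at least 5 other genes. The C was on the plus strand for Gm37376 and on the minus strand for Malat1. Which strand and which gene the reads came from was not tested, so these assignments are in doubt.

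In that stretch the Malat1 site at position 5802046 was methylated in more aged cells than any other low-level site, with 1987 young cells (75.8%, 74.1 to 77.4) and 768 aged cells (90.8%, 88.6 to 92.6). Its level was 0.848% in young and 0.187% in aged cells, so most cells of either age were counted with an edit there, at a level under 1%. The 41 bases around this site recur in 127 other genes, so which gene these shares and levels belong to is in doubt. The Gm37376 site at 5801962 had the lowest aged level, 0.0347%, against 0.233% in young cells, with methylated cells at 11.6% (10.4 to 12.8) and 46.1% (42.7 to 49.5). The 55 low-level Malat1 sites outside the stretch had median levels of 2.47% (young) and 0.528% (aged).

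At 33 sites in 20 genes the share was lower in aged cells with the 95% intervals apart. Of these, 11 lay in Lars2, the mitochondrial leucyl-tRNA synthetase gene, and Gm23935, annotated as a microRNA gene. Of the 10 listed Lars2 sites, 8 were low-level. These 8 lay within the annotated 3' UTR between positions 123461884 and 123462110 of chromosome 9, and all had intervals apart. At 123461996 the share was 37.4% in young cells (35.5 to 39.3) and 14.9% in aged cells (12.6 to 17.5). Levels at the 8 Lars2 sites were under 1% at both ages, and their medians were 0.433% (young) and 0.362% (aged). At the other listed Lars2 sites the aged level was 5.11 to 5.50% and the young level 0.503 to 3.53%. The Gm23935 site at position 11144128 of chromosome 16 had a share of 42.5% in young (40.6 to 44.4) and 31.6% in aged cells (28.4 to 34.8), at levels of 0.227% and 0.177%. Levels at the low-level sites of both genes were thus low at both ages. Which RNA the reads at these sites came from was not tested.

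Of the other sites of this set, 15 had fewer than 5 methylated aged cells, and at 11 of these 15 the young level was 30% or more. At Stard9 the level was 98.9% over 39 young cells, against 0.44% for the single methylated aged cell, 1 of 846. The calcium channel subunit gene Cacna2d3 likewise had 89.7% over 52 young cells and 0.53% for 1 aged cell. All 9 low-level sites with 1 methylated aged cell belonged to this set. A level from 1 cell has no spread and cannot stand for aged cells in general. These sites were named after their values were seen.

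Among sites with at least 10 methylated cells at each age, Cacna1a, the P/Q-type calcium channel gene, had the largest drop in level. It went from 78.8% in 139 young cells to 0.862% in 13 aged cells, and its share from 5.30% (4.47 to 6.23) to 1.54% (0.821 to 2.61). Ptpn2, a tyrosine phosphatase gene, went from 62.6% in 16 young cells to 1.29% in 10 aged cells. The long noncoding RNA 5330434G04Rik went from 61.5% to 0.98%, and Aak1, a kinase of clathrin-mediated endocytosis, from 60.8% to 1.10%. Camk2a, which encodes the alpha subunit of CaM kinase II, went from 51.6% in 22 young cells to 1.39% in 25 aged cells. The NMDA receptor gene Grin2b went from 47.4% to 0.814%, the active zone gene Erc2 from 46.0% to 1.27% and the splicing factor gene Luc7l2 from 42.3% to 0.620%. Apart from Cacna1a, each of these 7 sites had the higher share in aged cells, with intervals apart at 5330434G04Rik, Camk2a and Luc7l2. The bases around the Luc7l2 site recur in 1 other gene. The authors' deposited table gives adjusted p-values of 5.82e-06 at Cacna1a, 4.62e-05 at Luc7l2 and 0.0273 at Erc2.

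On the list of splicing factor and nuclear speckle genes 60 of 124 sites (48.4%, against 35.5% of all listed sites) were low-level, in 14 of the 23 listed genes. The median level was 8.58% in young and 0.80% in aged cells, and the share was higher in aged cells at all 60, with intervals apart at 54. Over all low-level sites these proportions were 88.9% and 56.7%, and over all listed sites with a methylated aged cell 76.1% and 47.9%. The aged share entered the choice of sites, so these counts are a description. Srrm2, a scaffold protein of nuclear speckles, had 15 of 23 sites in the group, all in coding sequence. Its site at position 23809976 of chromosome 17 was methylated in 76 young cells (2.90%, 2.29 to 3.61) and 120 aged cells (14.2%, 11.9 to 16.7), at levels of 3.68% and 0.317%. The spliceosome-associated gene Rbm25 had 11 of 26 sites in the group and the SR-related gene Pnisr 9 of 14. At the low-level Pnisr site with the most methylated aged cells, 12 young cells (0.457%, 0.237 to 0.798) and 70 aged cells (8.27%, 6.51 to 10.3) were methylated. The level there went from 3.18 to 1.35%. Ddx5, an RNA helicase, had methylated cells at 1.45% (1.03 to 1.98) and 12.4% (10.3 to 14.8), and a mean over all cells of 0.0827 and 0.195%. The 41 bases around this site recur in another gene.

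Calcium signalling genes held 41 low-level sites among 110 (37.3%, near the 35.5% of all listed sites), in 12 of 20 listed genes. At 35 of the 41 a larger share of aged than of young cells was methylated, with intervals apart at 15 in this direction and at 2 in the other. The higher share at 88.9% of all low-level sites is the value to set beside this count. The calmodulin genes Calm2 and Calm3 had 6 of 8 and 4 of 7 sites in the group. At all 6 Calm2 and all 4 Calm3 sites the intervals of the shares overlapped, which does not show that the shares were equal. At all 6 Camk2a sites the share was higher with intervals apart, as at position 60963951 of chromosome 18, with 0.724% of young cells (0.437 to 1.13) and 5.44% of aged cells (4.01 to 7.19).

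Synaptic genes made up the next lists. On the presynaptic list 45 of 131 sites (34.4%) in 16 of 26 genes were low-level, and on the postsynaptic list 18 of 92 (19.6%) in 10 of 19 genes, against 35.5% of all sites. Syt1, the calcium sensor of vesicle release, had 12 of 24 sites in the group, 8 of them in the 5' UTR. At position 108902299 of chromosome 10 the share was 4.80% in young (4.02 to 5.69) and 9.22% in aged cells (7.36 to 11.4), with levels of 3.73% and 1.28%. Snap25, a vesicle fusion gene, had 9 of 27, and at its low-level site with the most methylated aged cells the level went from 20.9 to 2.62%. The level at the adhesion gene Nrxn2 went from 4.96 to 0.587%. Of the postsynaptic genes, the GABA-B receptor gene Gabbr2 went from 16.7 to 0.885% and the AMPA receptor gene Gria2 from 7.72 to 2.92%. At Gria2 the intervals of the shares were apart and higher in aged cells, with 0.534% (0.292 to 0.894) and 2.96% (1.92 to 4.33). At Gabbr2 they were also apart, with 1.49% (1.06 to 2.03) and 3.19% (2.11 to 4.61).

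Of the cytoskeleton and motor genes, 9 of 18 listed genes held 22 low-level sites among 65 (33.8%, against 35.5% of all listed sites). Kif1a, a kinesin motor of axonal transport, had 8 of 15, all in coding sequence. Its site at position 93073842 of chromosome 1 was methylated in 33 young cells (1.26%, 0.868 to 1.76) and 61 aged cells (7.21%, 5.56 to 9.17), and the level went from 4.01 to 0.459%. Ank2, a membrane skeleton adaptor, went from 20.0 to 0.656%, and Map1b, a microtubule-associated protein, from 10.9 to 2.35%. Of the ion channel, pump and carrier genes, 15 of 41 sites (36.6%, against 35.5% of all) in 10 of 16 genes were low-level. The glial glutamate transporter gene Slc1a2 went from 18.5 to 2.68% and the potassium channel gene Kcnma1 from 8.73 to 1.58%. At Slc1a2 and Kcnma1 the share intervals overlapped.

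The remaining lists were small, and their proportions of low-level sites are to be read against the 35.5% of all listed sites. That base includes sites that could not be chosen, so a small difference from it is not to be read as higher or lower. Of the chromatin and zinc finger genes, 8 of 16 held 10 low-level sites among 29 (34.5%), and the level at Zfp91, which encodes a zinc finger protein, was 33.0% over 21 young cells and 1.34% over 63 aged cells. Ankrd11, a chromatin regulator, went from 18.6 to 2.02%, and the transcription factor gene Mef2c from 3.19 to 0.574%. Protein quality control genes held 5 low-level sites among 14 (35.7%), with the chaperone genes Hsp90ab1 (2.29 and 0.804%) and Hsp90aa1 (7.27 and 2.09%, with bases that recur in 3 other genes) and the calnexin gene Canx (8.18 and 0.778%). Of the m6A machinery, Zc3h13, a member of the methyltransferase complex, held 1 low-level site among 4 listed in 2 genes (25%), with 14.3 and 1.46%. Slc1a2 was the 1 gene of 4 listed glia-enriched genes with low-level sites, and it held 4 of the 14 listed sites (28.6%). Outside these lists, Ttc3 and Nrd1 were named for their numbers of sites and cells. Ttc3, a ubiquitin ligase gene, had 12 of 18 sites in the group, all in coding sequence, and Nrd1, the nardilysin gene, was methylated in 3.81% of young (3.11 to 4.62) and 15.1% of aged cells (12.8 to 17.7), with levels of 16.4 and 2.75%.

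The transcript region of a site was not used in the choice. Coding sequence held 287 low-level sites (39.4%, 35.8 to 43.0), 3' UTRs 183 (25.1%, 22.0 to 28.4), exons of noncoding transcripts 217 (29.8%, 26.5 to 33.2) and 5' UTRs 41 (5.62%, 4.07 to 7.55). Of the other sites 40.2% (37.5 to 43.0) lay in 3' UTRs and 15.1% (13.1 to 17.2) in noncoding exons, so these intervals did not overlap those of the low-level sites. Without the 5 genes with the most low-level sites, 31.2% (27.1 to 35.5) of low-level and 42.0% (39.1 to 44.9) of other sites lay in 3' UTRs. In coding sequence the proportions were then 54.5% and 43.7%. In noncoding exons the order turned, with 6.24% (4.28 to 8.74) of low-level and 10.5% (8.76 to 12.4) of other sites once those 5 genes were left out. By region, the median young level of low-level sites was 12.3% in 3' UTRs, 10.7% in coding sequence, 8.94% in 5' UTRs and 3.63% in noncoding exons. On coding transcripts, 14.9% (11.9 to 18.3) of low-level and 13.8% (11.8 to 16.1) of other sites lay within 200 bases of the stop codon, and these intervals overlapped. Sites of a gene share its reads, so the intervals treat as independent what is not.

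The base before the edited C was not used either. It was an A at 452 of 728 low-level sites (62.1%, 58.5 to 65.6) and at 1050 of 1235 other sites (85.0%, 82.9 to 87.0). Among the other C within 100 bases of the low-level sites 26.3% followed an A, so the proportion at low-level sites lay between that of their surroundings and that of the other listed sites. A G stood there at 19.5% of low-level and 5.67% of other sites. AAC or GAC preceded by A, G or T, searched on the gene's strand, was present at 50.5% (46.9 to 54.2) of low-level and 73.0% (70.5 to 75.5) of other sites, and at 12.9% of the surrounding C. The 5 bases GAACG, with the edited C before the last G, were found at 21 low-level sites (2.88%) and 154 others (12.5%). AAACA was the most frequent context in each, at 10.99% and 14.9%. A run of 6 A within the 41 bases around the site was present at 13.0% (10.6 to 15.7) of low-level and 29.1% (26.6 to 31.8) of other sites.

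**Figure D5:**
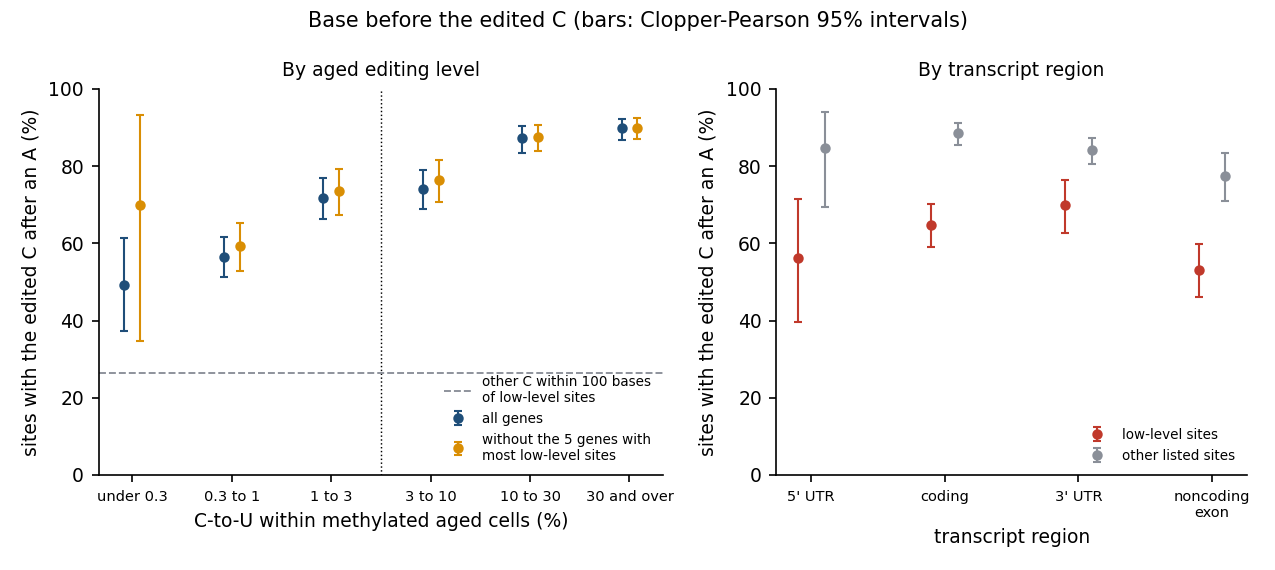
Percentage of sites with the edited C after an A (y axis) by aged C-to-U level (left; the vertical dotted line is the 3% threshold, the dashed line the 26.3% of other C within 100 bases of the low-level sites) and by transcript region (right). Points are percentages and bars exact 95% intervals; low-level sites lie under the others in each of the 4 regions, with overlapping intervals in 5' UTRs.

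The proportion of C after A followed the aged level across the threshold. It was 49.3% (37.2 to 61.4) for levels under 0.3%, 56.5% (51.2 to 61.7) from 0.3 to 1%, 71.8% (66.3 to 76.8) from 1 to 3%, 74.2% (68.9 to 79.0) from 3 to 10%, 87.2% (83.5 to 90.3) from 10 to 30% and 89.8% (86.9 to 92.3) from 30%. The intervals on the 2 sides of the 3% threshold overlapped. Without the 5 genes with the most low-level sites the values from 0.3% upward ran from 59.2 to 90.0%, and 7 of the 10 sites left under 0.3% had C after A. Among low-level sites it also differed by the young level, with 57.4% (51.4 to 63.2) for young levels from 3 to 10%, 69.9% (63.9 to 75.5) from 10 to 30% and 75% (62.1 to 85.3) from 30%. Of the 60 low-level sites with a young level of 30% or more, 29 lay in 3' UTRs and 26 in coding sequence.

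The proportion of C after A was lower at low-level sites in each transcript region. In coding sequence it was 64.8% (59.0 to 70.3) at low-level and 88.6% (85.5 to 91.3) at other sites, and in 3' UTRs 69.9% (62.7 to 76.5) and 84.2% (80.7 to 87.3). In noncoding exons it was 53.0% (46.1 to 59.8) and 77.5% (70.9 to 83.3). In 5' UTRs, with 41 and 39 sites, it was 56.1% (39.8 to 71.5) and 84.6% (69.5 to 94.1), and the intervals overlapped.

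The comparison was repeated within genes that held both kinds of site. Of the 286 genes, 171 also held other listed sites, and the remaining 115 held no other site with a methylated aged cell. In the 171 genes 58.6% (54.5 to 62.6) of low-level and 81.2% (77.7 to 84.4) of other sites had the C after an A. Gene by gene the proportion was lower at low-level sites in 76, higher in 31 and equal in 64. The median young level was lower at the low-level sites in 146 of the 171 genes, as in Kif1a (4.99 and 54.2%), Pnisr (8.15 and 28.6%) and Syt1 (5.63 and 17.8%), while in Calm2 it was higher (5.53 and 4.65%).

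Low-level sites also lay close together, though in 3' UTRs no more often than the others. Another listed site lay within 10 bases of 262 of the 729 (35.9%, 32.5 to 39.5) and of 263 of the 1240 others (21.2%, 19.0 to 23.6). For 193 low-level sites (26.5%) and 81 others (6.53%) at least 1 such neighbour was low-level. By region, a listed neighbour was present at 27.3% of low-level and 29.7% of other sites in 3' UTRs. The values were 30.0% and 11.8% in coding sequence, 52.5% and 24.6% in noncoding exons, and 29.3% and 23.1% in 5' UTRs. Without the 5 genes with the most low-level sites the proportions with a neighbour were 25.6% (21.8 to 29.6) and 19.0% (16.8 to 21.4). Neighbouring sites can lie on the same reads and are then not separate observations.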

How the data were processed

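Single-cell C-to-U editing was measured in 8 libraries of 1 group, aged cortex cells. Reads were aligned to mm10 with STAR 2.7.5, per the submitters' processing notes, and sites were found with the Bullseye pipeline, per the series' design text. The sources used here do not say how reads were filtered, whether molecular identifiers were counted, or which test the authors ran. Per the sample labels' protocols, fixed whole cells were barcoded by split-pool ligation, whereas the series' design text describes sorted nuclei.

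The authors deposited 1 table with 1 value per age and site. It gives the percent of cells methylated, the mean C-to-U fraction, counts of methylated cells (not reads), the log2 ratio of the means, a p-value and an adjusted p-value, per the file headers. The headers do not say over which cells the mean was taken, and all cells were assumed. Adjusted p-values printed are the authors' deposited values, and their log2 ratio was not used. No depth in reads is known.

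Python 3.11.15, pandas 2.3.3 and scipy 1.17.1 were used. Positions were read as counted from 0 and are printed from 1. All 728 low-level sites that could be placed then had a C on the strand of their gene. Sites were placed on GENCODE M21 (GRCm38) by gene name, with protein-coding principal transcripts first. 781 of 789 genes matched by name and 6 by an older or newer name. Intervals are Clopper-Pearson at 95%. The code for the choice of sites and for the intervals was run on simulated data. The simulated levels had no noise and none lay close to 3%, so this checked the code alone.

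The sites, the 11 gene lists and the rule for named genes were chosen with earlier results of these data known. Named were the 8 genes with the most low-level sites and the 8 with the most methylated aged cells, the 8 largest drops in level, the 5 lowest levels, up to 5 sites low at both ages, up to 3 genes per list, and 3 sites on each side of the threshold. Genes of the set with a lower share, Calm3, Rbm25 and the contexts were picked after their values were seen. Some genes under this rule are not reported here. Alternatives are in the closing section.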

Additional observations from a re-analysis of the deposited data

How the results depend on the processing

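Of 63 values (9 results under 7 alternatives), 36 stayed within the 95% interval of the value reported, or within 1.5 times for a count, and 27 did not. With at least 20 methylated aged cells, 389 sites in 108 genes remained. Their median young level was 5.25%, the share was the higher one in aged cells at 95.9% of sites, the mean lower at 84.3%, and 33.4% lay in coding sequence, 13.4% in 3' UTRs and 57.1% had C after A. Without the 5 genes with the most sites these values were 11.5%, 85.7%, 95.2%, 54.5%, 31.2% and 66.1%. With 1 site per gene (286 sites) they were 13.0%, 83.6%, 94.4%, 45.8%, 38.8% and 68.4%. With CT010467.1 kept, the median young level was 7.99%, the level was lower in aged cells at 96.1% of sites and the share higher at 82.2%. A threshold of 2% gave a lower mean at 93.4% of sites. A threshold of 5% gave 86.1%, and a lower level at 97.4%. Leaving out sites whose 41 bases recur in another gene moved none of the 9 results beyond these limits. The region proportions and the proportion of C after A thus both moved with the number of cells required and with the weight of genes with many sites. No paired analysis was possible because the table holds 1 pooled value per age. For the same reason no library could be left out. Depth in reads is unknown, and 79 low-level sites had fewer than 10 methylated aged cells.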
